A study of Mus musculus with 13 samples.

Results

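The genes described here are 9 keratins of the interfollicular epidermis (IFE), the stratified sheet of skin between the hair follicles, among 27998 gene rows in the count matrices. They were taken by symbol: Krt5, Krt14 and Krt15, known from the basal layer, Krt1 and Krt10, known from the layers above it, and Krt2, Krt77, Krt78 and Krt80, known mainly from differentiated cells. Each symbol had 1 row in the matrices, with the same gene identifier in the annotation.

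Keratins are the intermediate filament proteins of epithelial cells, and a filament is built from pairs of a type I and a type II chain. KRT14 pairs with KRT5 in the basal layer, which holds the dividing cells and sits on the basement membrane, while KRT10 pairs with KRT1 once a cell has left that layer and begun to differentiate. Inherited defects of KRT5 or KRT14 cause blistering through the basal layer in epidermolysis bullosa simplex, and those of KRT1 or KRT10 cause epidermolytic ichthyosis, in which the suprabasal layers are fragile. KRT15 is a type I chain of basal and follicle stem cells, KRT2 and KRT77 are type II chains of differentiated epidermis, and KRT78 and KRT80 are type II chains of which less is known.

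Back skin of C57BL/6 mice was read by droplet single-cell RNA sequencing in 13 libraries: whole skin of embryos at E14.5 and E16.5 (days of gestation) and epidermis at P0, at or just before birth, each with 2 wild-type (WT) and 2 Grhl3-/- (KO) libraries, plus a P0 WT library made earlier. Grhl3 encodes a transcription factor of epidermal barrier formation, and every Grhl3-/- embryo has spina bifida, so skin was taken in front of the defect from the same region in both genotypes. Per the methods each library was 1 animal, a genotype at an age had 1 male and 1 female, and the animals of an age were littermates. Epidermis was separated from dermis only at P0, after a longer dispase digestion, so age and tissue preparation cannot be told apart between E16.5 and P0.

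The libraries held from 49245953 to 107038146 UMIs (distinct tagged transcripts), and 86507 of 97363 cell barcodes passed the filters, with a median of 7448 to 9976 UMIs per cell in each library. No library pair shared more than 131 barcodes. Cells were clustered with every keratin gene left out, and classes were named from other markers only, so that the keratins stayed free for reading. Basal-like IFE cells (7672 in all, 189 to 1486 per library) carried Itga6, Itgb4, Col17a1 and other hemidesmosome and laminin genes. Suprabasal-like IFE cells (5935 in all, 145 to 784 per library) carried Sbsn, Krtdap, Dmkn and other genes of differentiation. Non-epithelial cells (46822 in all, 516 to 6769 per library), such as fibroblasts, endothelial, immune and pigment cells, were used to read keratin RNA that floats free in each library. Their level is called the free RNA level here. The mix of keratins in it differed between cell types of the same library, and what else it held was not tested. At P0, IFE-like clusters between the classes were kept out of both: 3.64% to 4.35% of a library's cells on the basal side, 4.82% and 5.75% on the suprabasal side in WT and 3.10% and 3.42% in Grhl3-/- (4.41% and 0% in the earlier library). They were part of the epithelial cells left in no named class. These numbered 2405 of 6765 and 2333 of 6589 cells in WT, and 3175 of 9157 and 2533 of 7283 in Grhl3-/-. A further 435 to 564 cells of each of these 4 libraries carried both epithelial and non-epithelial markers and were also left out. The earlier P0 WT library is labelled as another version of the chemistry and its non-epithelial cells carried 4939 CPM of the 9 keratins together, against 75.5 to 1508 CPM in the others. It is described beside the rest and entered no test.

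Grhl3 was read first, as a check of the labels. In suprabasal-like cells it stood at 84.8 and 108 CPM (UMIs of the gene scaled to the same total of UMIs in each library and class) in WT and 58.8 and 61.7 CPM in Grhl3-/- at E14.5, at 35.9 and 36.4 CPM against 19.9 and 12.9 CPM at E16.5, and at 25.6 and 25.9 CPM against 6.70 and 9.64 CPM at P0. It was lower in Grhl3-/- at E16.5 (log2 fold change -1.16, adjusted p = 0.0178) and at P0 (-1.75, adjusted p = 0.00011) but not past the threshold at E14.5 (-0.68, adjusted p = 0.113; edgeR's quasi-likelihood test with Benjamini-Hochberg adjustment over all genes, as for every adjusted p of a gene given here). Tags were read from the 3′ end of transcripts, so those of a transcript with a deletion elsewhere could still be counted, and the remaining tags check nothing further.

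The type I genes lie on chromosome 11 and the type II genes on chromosome 15, and all 9 are on the minus strand. In GRCm38, Krt10 spans chr11:99385254-99389364, Krt15 chr11:100131758-100135928 and Krt14 chr11:100203162-100207548, so that these 3 genes fit in 0.822 Mb. On chromosome 15 the order is Krt80 (chr15:101347444-101370162), Krt5 (chr15:101707070-101712898), Krt2 (chr15:101810689-101818169), Krt1 (chr15:101845426-101850794), Krt77 (chr15:101858731-101869705) and Krt78 (chr15:101946001-101954287), 6 genes in 0.607 Mb. Krt1 and Krt77 are next to each other among the members there.

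RefSeq promoter windows (GRCm38.p6) matched 6 of the 9 genes. For 5 of those the start that RefSeq's window uses was at most 7 bases from the gene's annotated start (7 bases before it for Krt5, at it for the others). The 80 bases before the window's start site of these 5 genes are printed 5′ to 3′ to show what the members share beyond their symbol, with a TATA-like hexamer in capitals.
Krt5 (chr15:101712906-101712985): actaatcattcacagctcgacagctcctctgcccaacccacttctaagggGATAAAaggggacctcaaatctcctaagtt
Krt10 (chr11:99389365-99389444): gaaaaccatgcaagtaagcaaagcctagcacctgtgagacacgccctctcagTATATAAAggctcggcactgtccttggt
Krt2 (chr15:101818170-101818249): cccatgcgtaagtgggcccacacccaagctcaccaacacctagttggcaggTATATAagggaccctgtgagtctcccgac
Krt77 (chr15:101869706-101869785): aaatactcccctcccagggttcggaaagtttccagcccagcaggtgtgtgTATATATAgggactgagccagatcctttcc
Krt78 (chr15:101954288-101954367): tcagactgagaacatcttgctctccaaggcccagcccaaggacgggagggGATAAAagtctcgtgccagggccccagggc
The hexamers searched on the sense strand, where matches may overlap, were TATAAA, which 3.37% of 32851 promoters held in the same stretch, then TATATA, held by 1.88%, and last GATAAA, held by 1.36%. All 5 windows held at least 1 of them, GATAAA alone for Krt5 and Krt78, with the first base 28 to 30 bases before the window's start site. Of all promoters 6.09% held at least 1, counted at any position of the 80 bases. The sixth matched window, that of Krt14, starts 1518 bases inside the gene and held 0 of them, and the share over all promoters was taken with no such selection. The GRHL motif AACCGGTT and the AP-1 motif TGANTCA, searched on both strands, had no match in these windows, and 0.0274% and 2.11% of all promoters held them. A match is a description of letters and no test of a factor.

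**Figure D1:**
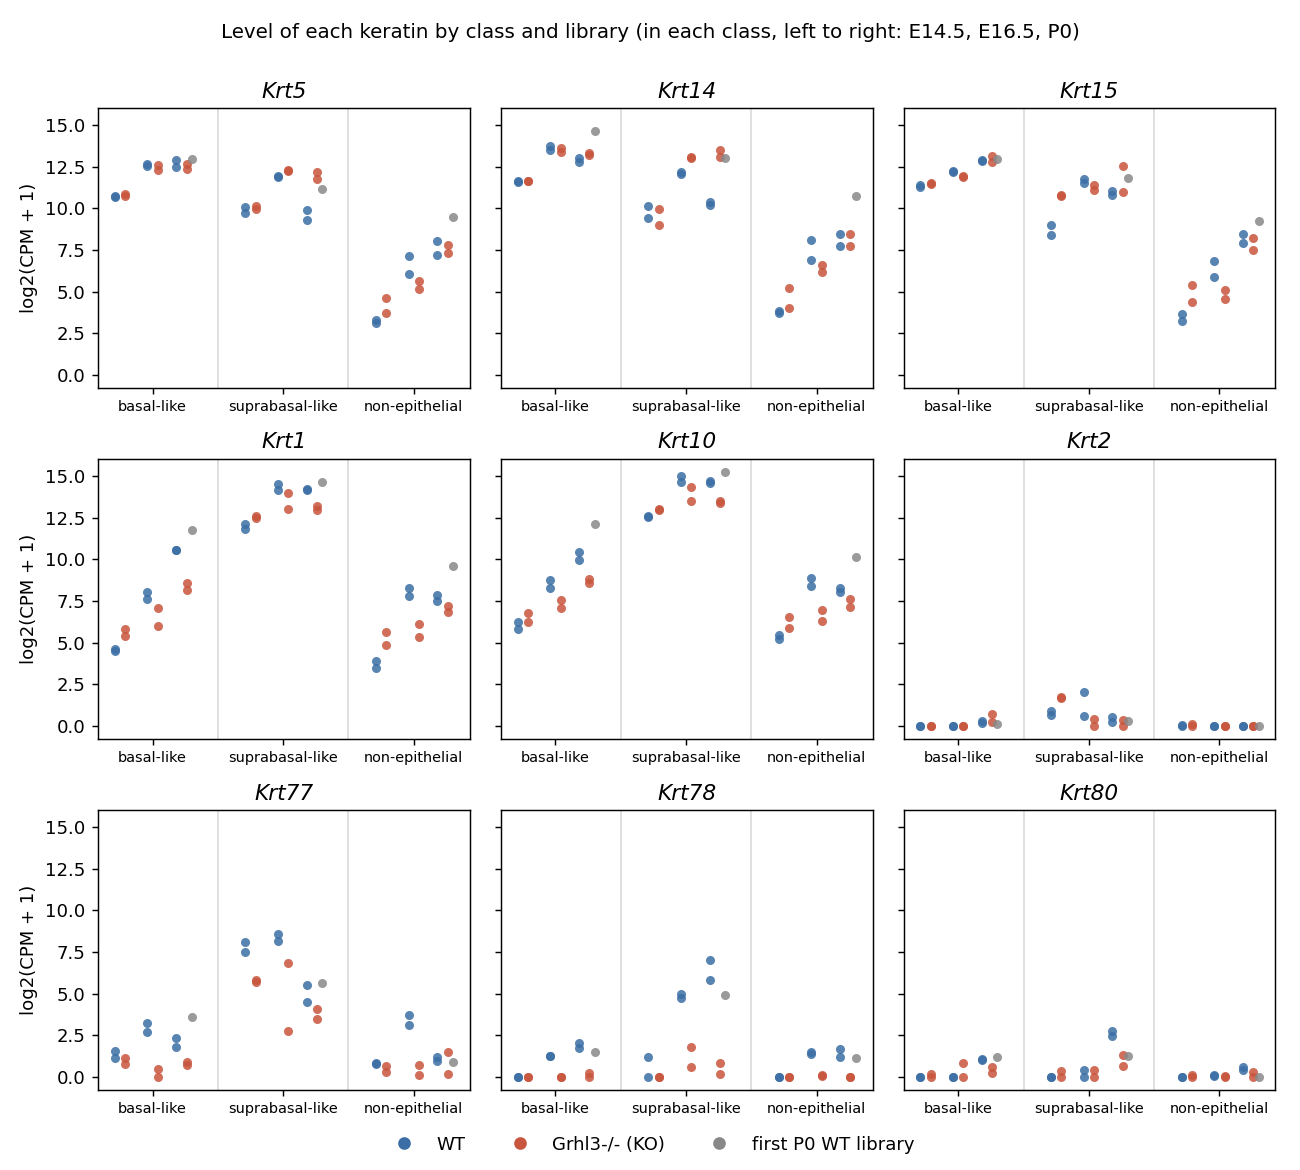
Level of each of the 9 keratins, as log2(CPM + 1), in basal-like, suprabasal-like and non-epithelial cells. Each point is 1 library, with E14.5, E16.5 and P0 from left to right in each class, WT in blue, Grhl3-/- in red and the earlier P0 WT library in grey. Krt1 and Krt10 stand highest in suprabasal-like cells of every library, while at P0 the red Krt5 and Krt14 points lie well above the blue ones in that class.

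Krt5, Krt14, Krt15, Krt1, Krt10 and Krt77 followed the layers set by the other markers. Krt2, Krt78 and Krt80, with few UMIs, had a higher CPM in suprabasal-like cells in 11, 10 and 7 of 13 libraries. Krt1, Krt10 and Krt77 were higher in suprabasal-like than in basal-like cells in 13 of 13 libraries, with a median log2 ratio of 6.56 for Krt1 (range 2.88 to 7.64), 6.30 for Krt10 (3.13 to 6.77) and 5.29 for Krt77 (2.16 to 7.65). Krt15 was lower there in every library (median log2 ratio -0.79, range -3.00 to -0.47), and Krt14 and Krt5 in all but 1 (medians -1.62 and -0.68). The exception was the second Grhl3-/- library at P0 for Krt14 and at E16.5 for Krt5. Together the 9 genes took 0.748% to 0.795% of the UMIs of basal-like cells at E14.5, 1.95% to 2.55% at E16.5 and 2.22% to 2.62% at P0, and 1.17% to 1.87%, 3.58% to 6.71% and 3.79% to 4.90% of those of suprabasal-like cells. The earlier P0 library stood above the others, at 4.86% and 7.75%. For Krt5, Krt14, Krt15, Krt1 and Krt10 the level in non-epithelial cells was a median of 0.96% to 1.43% of that in the class where the gene was higher, and at most 8.82%, for Krt5. A UMI counts a transcript's 3′ tag, so levels are compared here between libraries and classes for the same gene, not between genes.

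Krt14, the type I chain of the basal layer, was at similar levels in basal-like cells of both genotypes at each embryonic age. At E14.5 it measured 3220.2 and 3081 CPM in WT and 3136 and 3164 CPM in Grhl3-/-. At E16.5 it measured 11310.0 and 13644 CPM in WT and 12754 and 10590.4 CPM in Grhl3-/-. At P0 the WT libraries stood at 6908 and 8106 CPM, the Grhl3-/- libraries at 10353 and 9174 CPM and the earlier WT library at 24966 CPM. The genotypes overlapped at E14.5 and at E16.5, and at P0 both Grhl3-/- libraries were above both WT libraries made with them but far below the earlier one. Among WT libraries Krt14 rose from E14.5 to E16.5 (log2 fold change 2.10, SE 0.14) and fell from E16.5 to P0 (-0.75). The P0 difference between genotypes was small (0.37, SE 0.14, adjusted p = 0.0455) and missed the threshold under 6 alternatives to the processing.

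Krt5, its type II partner, ranged from 1627 to 1840.0 CPM in basal-like cells at E14.5, from 4935 to 6503 CPM at E16.5 and from 5239 to 7550.2 CPM at P0, with 8066 CPM in the earlier library. The genotypes overlapped at E14.5, E16.5 and P0. Krt5 rose in WT from E14.5 to E16.5 (log2 fold change 2.00, SE 0.16), and its change to P0 was 0.07 (adjusted p = 0.692). Krt15 rose at both steps, by 0.997 (SE 0.13) and then 0.63 on the log2 scale: basal-like cells held 2465 and 2671 CPM in WT at E14.5, 4819 and 4667 CPM at E16.5 and 7216 and 7627 CPM at P0. In Grhl3-/- basal-like cells the same gene measured 2836 and 2950.4, then 3843 and 3731, then 8894 and 6980.1 CPM, and its genotype difference did not pass the threshold at E14.5, E16.5 or P0 (log2 0.11, -0.40 and 0.09).

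Of the 9 members, 7 could be tested in basal-like cells, and 7 of 7 were higher at E16.5 than at E14.5 in WT, where 16% of all genes tested changed. For 4 of the 7, Krt1, Krt10, Krt77 and Krt78, basal-like cells of both WT libraries at E16.5 lay below the free RNA level of their own library, which had itself risen since E14.5 (for Krt1 from 10.2 and 13.9 to 221 and 304 CPM), and the part of free RNA in their rise was not tested. From E16.5 to P0, where 60.9% of all genes changed, Krt10 (log2 1.69), Krt1 (2.70) and Krt15 rose while Krt14 and Krt77 (-1.10, adjusted p = 0.0149) fell. The Krt77 value became 0.27 (adjusted p = 0.491) with the kept-out P0 clusters added, and its E16.5 levels in WT, 5.595 and 8.41 CPM, were under the 7.59 and 12.1 CPM of non-epithelial cells. Krt2 and Krt80 were too sparse to test, with fewer than 2 CPM in each library.

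Suprabasal-like cells gave another picture for the basal keratins. Krt14 there measured 1108 and 672 CPM in WT and 518 and 1008 CPM in Grhl3-/- at E14.5. At E16.5 it measured 4625 and 4268 CPM in WT and 8177 and 8771 CPM in Grhl3-/-. At P0 it measured 1345 and 1156 CPM in WT, 8618 and 11585 CPM in Grhl3-/- and 8131 CPM in the earlier WT library. The genotypes overlapped at E14.5 and were apart at E16.5 and at P0, although the earlier WT library reached nearly the lower Grhl3-/- value. The P0 rise was 2.92 on the log2 scale (SE 0.31, adjusted p = 3.67e-05), or 8.07-fold in pooled CPM, and held under every alternative, with a lowest value of 1.99 when the P0 clusters kept out were added to the classes. At E16.5 the difference was 0.86 (SE 0.29, adjusted p = 0.135).

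Krt5 in suprabasal-like cells followed the same course. It measured 1079 and 849 CPM in WT against 995 and 1142 CPM in Grhl3-/- at E14.5, and 3843 and 3673 CPM against 4894 and 4963 CPM at E16.5. At P0 the WT libraries held 933 and 618 CPM and the Grhl3-/- libraries 4684 and 3413 CPM, with 2295 CPM in the earlier WT library. Both Grhl3-/- libraries at P0 were thus above every P0 WT library, the earlier one included. The log2 fold change was 2.28 at P0 (SE 0.20, adjusted p = 1.51e-05) and 0.32 at E16.5 (adjusted p = 0.451), and the P0 value kept its call under every alternative, down to 1.26 with the kept-out clusters added.

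The difference between genotypes was itself greater at P0 than at E16.5 for both genes of the basal pair. By the test of that difference it was 2.06 on the log2 scale for Krt14 (SE 0.41, adjusted p = 0.0102) and 1.96 for Krt5 (SE 0.28, adjusted p = 0.00204), 2 of the 9 members, where 9.83% of all genes were called. With the kept-out P0 clusters added, an alternative chosen after seeing the data, the values became 1.13 (adjusted p = 0.103) and 0.93 (adjusted p = 0.101), so the call depends on where the suprabasal-like class ends at P0. With classes from clusters made without integration the value for Krt14 was 1.97 (adjusted p = 0.052). In basal-like cells the same test called 0 of 7 members (4 at an unadjusted p under 0.05, 0 by DESeq2), where 1802 of all 12427 genes were called.

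Within the P0 class the rise stood in both clusters that made it up. In the cluster that held 53.6% of the suprabasal-like cells of each WT library, Krt14 measured 1757 and 1563 CPM in WT and 9078 and 6189 CPM in Grhl3-/-. In the other it measured 1045 and 854 CPM in WT and 8154 and 12713 CPM in Grhl3-/-. The first cluster held 64.7% and 21.8% of the class in the Grhl3-/- libraries, so the mix differed between them while the direction did not. Other measures moved with it: the summed non-keratin suprabasal markers stood at 20559 to 21702 CPM in WT and 7851 to 8322 CPM in Grhl3-/- suprabasal-like cells at P0, and the granular markers, among them Lor and Flg, at 4033 to 4056 CPM and 79.8 to 335 CPM. The non-keratin basal markers overlapped in CPM, at 518 to 566 in WT and 416 to 582 in Grhl3-/-. Relative to basal-like cells of the same library they were 0.195 and 0.171 in WT and 0.412 and 0.338 in Grhl3-/-, without overlap. The basal-like cells in that ratio differed themselves, with 2901 to 3025 CPM of these markers in WT and 1231 to 1415 CPM in Grhl3-/-. The part of these measures in the keratin values was not tested. Free Krt14 RNA was alike in the genotypes, at 348 and 209 CPM in non-epithelial cells of the WT and 352 and 212 CPM in those of the Grhl3-/- libraries.

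**Figure D2:**
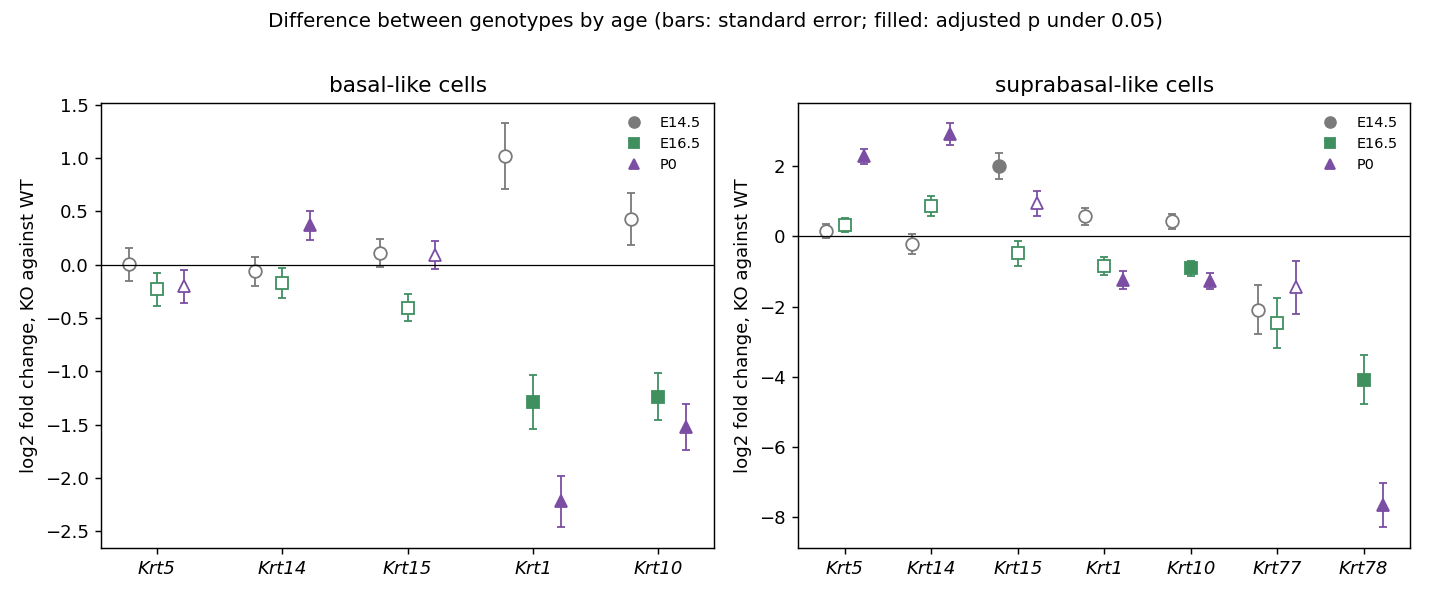
Log2 fold change of Grhl3-/- against WT for the members with enough UMIs, in basal-like (left) and suprabasal-like (right) cells at each age. Bars are standard errors worked back from edgeR's F statistic, and filled symbols have an adjusted p under 0.05. Krt78 at E14.5 is left out because neither Grhl3-/- library held a UMI of it. At P0 the basal pair lies above 0 and the suprabasal genes below it in suprabasal-like cells.

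Krt15 was called at E14.5. In suprabasal-like cells of that age it measured 519 and 334 CPM in WT and 1692 and 1763 CPM in Grhl3-/-, with no overlap (log2 fold change 2.02, SE 0.37, adjusted p = 0.0221). It was the only one of the 9 members called there, where 1.54% of all genes were. The basal markers summed to 63.7 to 70.03 CPM in WT and 87.8 to 89.3 CPM in Grhl3-/- cells of the class. The suprabasal markers summed to 8518 to 8641 CPM in WT and 5989 to 6298 CPM in Grhl3-/-, the granular markers to 137 to 208 CPM against 26.1 to 27.6 CPM, and 7 fibroblast markers to 406 to 613 CPM against 866 to 868 CPM. Their part in the Krt15 value was not tested. The smaller cluster of that class held 89.6 and 73.3 CPM in WT and 1803 and 1853 CPM in Grhl3-/-, and the other 792 and 509 against 1609 and 1725 CPM. Leaving out any 1 of the 4 E14.5 libraries ended the call (adjusted p from 0.073 to 0.26). At E16.5 Krt15 measured 3473 and 2948 CPM in WT and 2649 and 2160.2 CPM in Grhl3-/- (log2 -0.48), and at P0 1768 and 2099 CPM against 6034 and 2002 CPM (0.95, adjusted p = 0.0586), with 3594 CPM in the earlier library. At P0 the Grhl3-/- libraries thus stood 1 within and 1 far above the WT values. Without the second of them the P0 difference was 1.49 and called (adjusted p = 0.00056).

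The suprabasal pair, Krt1 and Krt10, went the other way at the later ages. Krt10, the type I chain, measured 6089 and 5938 CPM in WT and 7773 and 8411 CPM in Grhl3-/- suprabasal-like cells at E14.5. At E16.5 it measured 25006 and 32745 CPM against 20552 and 11514 CPM. At P0 it measured 24727 and 26395 CPM against 10722 and 11705 CPM, with 38372 CPM in the earlier WT library. The Grhl3-/- libraries were above WT at E14.5 and below WT at E16.5 and P0, without overlap each time. Krt10 fell by 1.28 on the log2 scale at P0 (SE 0.23, adjusted p = 0.00109) and by 0.91 at E16.5 (SE 0.22, adjusted p = 0.0468), and its E14.5 difference of 0.43 was not called (adjusted p = 0.403). The E16.5 call was lost under 6 kinds of alternative, among them leaving out the second WT library (adjusted p = 0.30) or the second Grhl3-/- library (0.19). At that age the 8 non-keratin suprabasal markers summed to 20347 to 23113 CPM in WT and 11069 to 13226 CPM in Grhl3-/- suprabasal-like cells. The 8 granular markers summed to 9754 to 13688 CPM against 105 to 1146 CPM, and 5 markers of red blood cells to 7969 to 8721 CPM against 11597 to 23328 CPM. The basal markers summed to 172 to 186 CPM against 204 to 286 CPM. The part of these in the E16.5 keratin values was not tested.

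Krt1, the type II partner, measured 4407 and 3649 CPM in WT and 5764 and 6295 CPM in Grhl3-/- suprabasal-like cells at E14.5. At E16.5 it measured 18437 and 23088 CPM against 15755 and 8428 CPM, and at P0 19329.6 and 18554 CPM against 7953 and 9168 CPM, with 24991 CPM in the earlier library. The order of the genotypes was that of Krt10 at each age. Krt1 fell by 1.24 at P0 (SE 0.25, adjusted p = 0.00223), or 2.22-fold in pooled CPM, while -0.84 at E16.5 and 0.58 at E14.5 were not called (adjusted p = 0.0885 and 0.284). With classes from clusters made without integration, the P0 value for Krt1 was -0.41 (adjusted p = 0.32) and that for Krt10 -0.72 (adjusted p = 0.041). In WT both genes rose from E14.5 to E16.5 (log2 2.57 for Krt1, 2.47 for Krt10), and their changes from E16.5 to P0 were 0.06 and 0.02 (adjusted p = 0.953 for Krt10). With the kept-out P0 clusters added these last became -0.71 (adjusted p = 0.0235) and -0.75 (adjusted p = 0.0130), so they depend on where the class ends.

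The P0 difference of the suprabasal pair was found mainly in 1 of the 2 clusters of the class. In the cluster with the higher WT level, Krt10 measured 31226 and 31709.9 CPM in WT and 7699.7 and 11607 CPM in Grhl3-/-, and in the other 15769 and 19256 CPM against 13717 and 12172 CPM. Krt1 in the first measured 22581 and 21509 CPM against 5552 and 8980.4 CPM, and in the other 14848 and 14584 CPM against 10332 and 10063 CPM. The genotypes did not overlap in either cluster. No test was run within clusters.

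In all, 6 of the 9 members were called between genotypes in suprabasal-like cells at P0, where 36.1% of all genes were: Krt14 and Krt5 higher and Krt1, Krt10, Krt78 and Krt80 lower. Krt80 entered the tests only through the P0 WT libraries, where it was high, so its calls here are not independent of that. At E16.5 2 of 9 were, Krt10 and Krt78, where 3.64% of all genes were. In WT suprabasal-like cells 6 of 9 rose from E14.5 to E16.5 (20.7% of all genes called), namely Krt14 (log2 2.52), Krt5 (2.17), Krt15 (3.11), Krt1, Krt10 and Krt78. From E16.5 to P0 (48.9% of all genes called) Krt14 fell by 1.63, Krt5 by 2.07, Krt77 by 3.13 and Krt2 by 2.46, and Krt80 and Krt78 rose by 5.16 and 1.90. The Krt77 value became 0.99 without the granular cluster of E16.5, and that of Krt2 -0.58 without the second E16.5 library. No cluster was kept out at E16.5, where 1 cluster of the suprabasal-like class held 10011 and 10439 CPM of Krt14 in WT. With the kept-out P0 clusters added, the falls to P0 were 1.52 for Krt14 and 1.67 for Krt5. In WT suprabasal-like cells the granular markers summed to 137 to 208 CPM at E14.5, 9754 to 13688 CPM at E16.5 and 4033 to 4056 CPM at P0. From E16.5 to P0 those of red blood cells went from 7969 to 8721 CPM to 1.48 to 1.83 CPM. Fibroblast markers went from 1052 to 1812 CPM to 1.13 to 2.74 CPM. The part of these in the age changes was not tested.

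Low levels of Krt1 and Krt10 were also read in basal-like cells, where they have to be set against free RNA. Krt10 measured 56.1 and 73.5 CPM in WT and 73.1 and 107 CPM in Grhl3-/- basal-like cells at E14.5, where non-epithelial cells of the same libraries held 36.6 and 43.6, and 58.3 and 90.9 CPM. At E16.5 it measured 304 and 423 CPM against 188 and 136 CPM, and the non-epithelial cells held 338 and 461, and 122 and 79.3 CPM. At P0 it measured 973 and 1405 CPM against 387 and 454 CPM, and the non-epithelial cells 309.6 and 261, and 195 and 140.2 CPM. The WT basal-like cells were thus below the free RNA level at E16.5, and every other library was above its own.

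Krt1 in basal-like cells measured 196 and 263 CPM in WT and 134 and 61.8 CPM in Grhl3-/- at E16.5, against 221 and 304, and 67.1 and 39.5 CPM in non-epithelial cells. At P0 it measured 1523 and 1494 CPM in WT and 279 and 379 CPM in Grhl3-/-, against 231 and 178, and 146 and 113 CPM. It fell by 2.22 on the log2 scale at P0 (SE 0.24, adjusted p = 8.55e-06), and Krt10 fell by 1.52 (SE 0.22, adjusted p = 7.6e-05), both under every alternative. The 7 non-keratin basal markers summed to 2901 to 3025 CPM in WT and 1231 to 1415 CPM in Grhl3-/- basal-like cells at P0, with 1146 CPM in the earlier WT library. There the suprabasal markers summed to 3406 to 3415 CPM in WT and 2840 to 3295 CPM in Grhl3-/-, and the granular markers to 43.0 to 43.4 CPM against 11.8 to 17.4 CPM. The part of these markers in the P0 values was not tested. At E16.5 Krt1 (-1.28, SE 0.25, adjusted p = 0.0378) and Krt10 (-1.24, SE 0.22, adjusted p = 0.0265) were also called lower. There the WT libraries were below their free RNA level and the Grhl3-/- libraries above theirs, and the part of free RNA in these values was not tested. In the same class the granular markers summed to 184 to 295 CPM in WT and 22.2 to 28.2 CPM in Grhl3-/-, and those of red blood cells to 3378 to 5495 CPM against 8579 to 9425 CPM, which was not tested either. Both calls were lost without the second WT library (adjusted p = 0.32 and 0.28) or the second Grhl3-/- library (0.24 and 0.29), and that of Krt1 also without the first WT library (0.053).

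In basal-like cells 0 of 7 members were called between genotypes at E14.5 (1 at an unadjusted p under 0.05, 0 by DESeq2), where 0.00805% of all genes were. Krt1 was nearest, at 21.9 and 24.1 CPM in WT and 40.5 and 54.8 CPM in Grhl3-/- (log2 1.02, SE 0.31). At E16.5 3 of 7 were called, Krt1, Krt10 and Krt77, all lower, where 0.362% of all genes were. At P0 5 of 7 were called, where 36.7% of all genes were: Krt1, Krt10, Krt77 and Krt78 lower, and Krt14 higher. In this class Krt78 entered the tests only through the P0 WT libraries, where it was high, so its call is not independent of that.

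Krt77, a late type II keratin, was read mostly in suprabasal-like cells. It measured 183 and 276 CPM in WT and 56.3 and 52.0 CPM in Grhl3-/- at E14.5, and 285 and 388 CPM against 115 and 5.92 CPM at E16.5. At P0 it measured 21.6 and 45.4 CPM against 10.3 and 15.95 CPM, with 49.6 CPM in the earlier library. The Grhl3-/- libraries were below WT at each age without overlap, yet no difference passed the threshold there (log2 -2.09, -2.46 and -1.45, with SE 0.69, 0.70 and 0.74). Without the first Grhl3-/- library the E16.5 value was -5.95 (adjusted p = 0.0021). At E16.5 most of it in WT came from a small granular cluster, with 2566 and 3888 CPM from 45 cells in each WT library and 3853 and 235 CPM from 5 and 2 cells in the Grhl3-/- libraries. Without that cluster its WT change from E14.5 to E16.5 turned from 0.76 (adjusted p = 0.448) to -3.36 (adjusted p = 6.92e-05), and that to P0 from -3.13 (adjusted p = 0.00322) to 0.99 (adjusted p = 0.0329). In basal-like cells 1 UMI was counted in Grhl3-/- against 113 in WT at E16.5, a rate 32.96 times higher in WT (exact 95% interval 5.80 to 1313), while non-epithelial cells held 7.59 and 12.1 CPM in WT and 0.675 and 0.111 CPM in Grhl3-/-. That call (log2 -4.98, adjusted p = 0.00952) was lost without the second WT library or either Grhl3-/- library (adjusted p from 0.055 to 0.13), while at P0 Krt77 fell by 2.00 in basal-like cells (adjusted p = 0.00275).

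Krt78 had the largest fold change between genotypes among the members in suprabasal-like cells. In suprabasal-like cells it was at 1.305 and 0 CPM in WT and 0 in both Grhl3-/- libraries at E14.5, and at 30.8 and 25.8 CPM against 2.54 and 0.538 CPM at E16.5. At P0 it measured 56.2 and 127 CPM in WT, 0.142 and 0.831 CPM in Grhl3-/- and 29.2 CPM in the earlier library. These are 492 and 1463 UMIs against 1 and 5, a rate 209 times higher in WT (exact 95% interval 96.1 to 572). The log2 fold change was -7.66 at P0 (SE 0.63, adjusted p = 1.48e-05), called under every alternative, and -4.08 at E16.5 (SE 0.69, adjusted p = 0.0106). The E16.5 call was lost without the second Grhl3-/- library (adjusted p = 0.11) and without the granular cluster (0.23), which held 133 and 192 of its UMIs in WT. In basal-like cells it stood at 2.40 and 3.10 CPM in WT at P0, near the 2.15 and 1.26 CPM of non-epithelial cells, and at 0 and 0.165 CPM in Grhl3-/-.

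Krt80 and Krt2 were rare. Krt80, a type II keratin, had 40 and 68 UMIs in WT and 4 and 9 UMIs in Grhl3-/- suprabasal-like cells at P0 (4.57 and 5.90 against 0.570 and 1.495 CPM), with 12 UMIs in the earlier library, and no more than 3 UMIs in any library at E14.5 or E16.5. It was lower by 2.45 on the log2 scale in Grhl3-/- at P0 (SE 0.61, adjusted p = 0.00983). It lost the call with DESeq2, without integration, and without the second WT or the first Grhl3-/- library. It passed the filter on low counts only through the P0 WT libraries, where it was high, so the call depends on that selection and gives no separate support. Krt2, a keratin of the upper spinous layer of older skin, had 2 and 2 UMIs in WT and 7 and 23 UMIs in Grhl3-/- suprabasal-like cells at E14.5, 3 and 26 against 1 and 0 at E16.5, and 4 and 2 against 2 and 0 at P0.

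**Figure D3:**
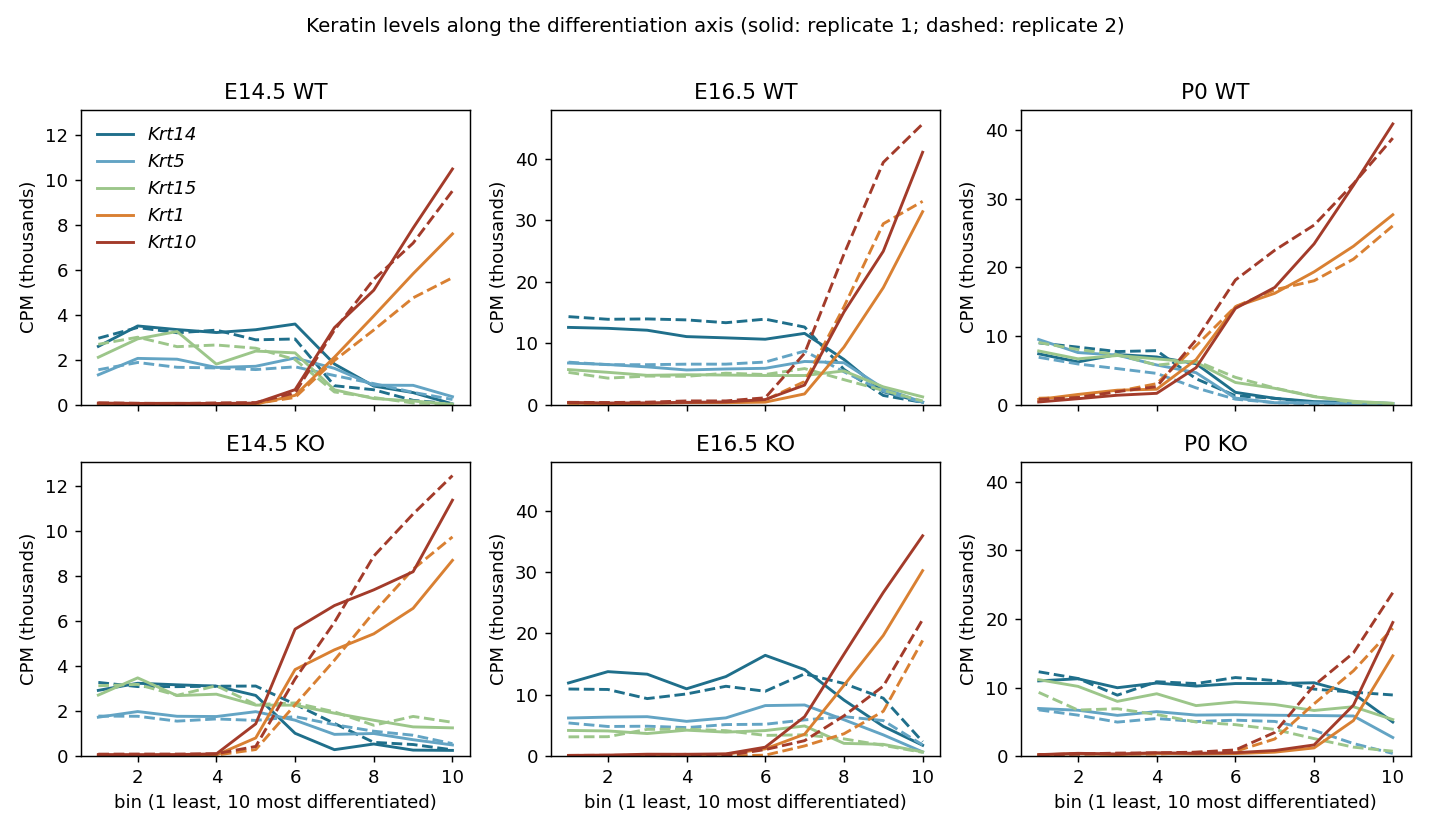
Level of Krt14, Krt5, Krt15, Krt1 and Krt10 (CPM, in units of 1000) along a differentiation axis built from non-keratin genes, in 10 bins with equal numbers of basal- and suprabasal-like cells per library. Columns are ages, rows are genotypes, and solid and dashed lines are the replicate libraries. At P0 the Krt14 lines have fallen to 1782 and 1289 CPM by bin 6 in WT, while in Grhl3-/- they still stand at 10601 and 11474 CPM there.

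The same keratins were followed along a differentiation axis, a score per cell of the suprabasal and granular markers less the basal markers, with no keratin in it. Krt1 and Krt10 peaked in bin 10, the most differentiated, in all 13 libraries, and the median peak bin was 1 for Krt14 and 2 for Krt5 and Krt15. With bins of equal width on the score the peak depended on the library. Both genes then peaked in bin 7 in the WT libraries of E16.5, where Krt1 went from 42255 and 51028 CPM in bin 7 to 16948 and 7286 CPM in bin 10, in bins of only 16 to 31 cells. Both peaked in bin 9 in the earlier P0 WT library, as did Krt1 in the second Grhl3-/- library at P0, and both in bin 10 otherwise. In P0 WT, Krt14 went from 7399 and 8993 CPM in bin 1 to 1782 and 1289 CPM in bin 6 and 170.3 and 155 CPM in bin 10. In P0 Grhl3-/- it was 10985 and 12316 CPM in bin 1, 10601 and 11474 CPM in bin 6, and 4989 and 8934 CPM in bin 10. Bin 10 of either Grhl3-/- library thus held more Krt14 than any of bins 6 to 10 of the WT libraries. Krt10 in bin 6 was 14022 and 18162 CPM in P0 WT and 521 and 922 CPM in P0 Grhl3-/-, and in bin 10 it was 40919 and 38849.9 CPM against 19500.4 and 23855 CPM.

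These bins hold equal numbers of cells, so a bin holds different cells where the classes differ in size: 99.2% of bin 6 was suprabasal-like in both P0 WT libraries, against 12.4% and 19.8% in the Grhl3-/- libraries. Bin 10 was all suprabasal-like in these 4 libraries. At E16.5 Krt14 in bin 10 was 396 and 357 CPM in WT and 1786 and 2361 CPM in Grhl3-/-, and in bin 9 2088 and 1484 CPM against 4871 and 9454 CPM. The Grhl3-/- libraries were above WT in both bins. At E14.5, bin 10 held 30.6 and 33.5 CPM of Krt14 in WT and 259 and 285 CPM in Grhl3-/-.

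Ratios were then taken within a pair. The Krt1 to Krt10 ratio in suprabasal-like cells lay between 0.615 and 0.783 in all 13 libraries, and its mean log2 difference between genotypes was 0.08 (two-sided exact permutation within ages over 216 arrangements, p = 0.102, adjusted p = 0.201 over 5 values), or 0.17 with classes made without integration (adjusted p = 0.0926). The Krt5 to Krt14 ratio in basal-like cells was 0.528 to 0.587 at E14.5 and 0.466 to 0.524 at E16.5. At P0 it was 1.09 and 0.707 in WT, 0.610 and 0.571 in Grhl3-/- and 0.323 in the earlier WT library, a span in WT wider than the genotype difference. The mean log2 difference over the ages was -0.19 (exact permutation p = 0.167, adjusted p = 0.208). Summed type II to type I UMIs over both classes were 0.687 and 0.586 in WT and 0.392 and 0.434 in Grhl3-/- at P0, with 0.424 in the earlier library and 0.490 to 0.576 at the other ages (mean log2 difference -0.23, exact permutation p = 0.120, adjusted p = 0.201). The smallest p this test allows is 0.00926, and 0.333 within 1 age.

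**Figure D4:**
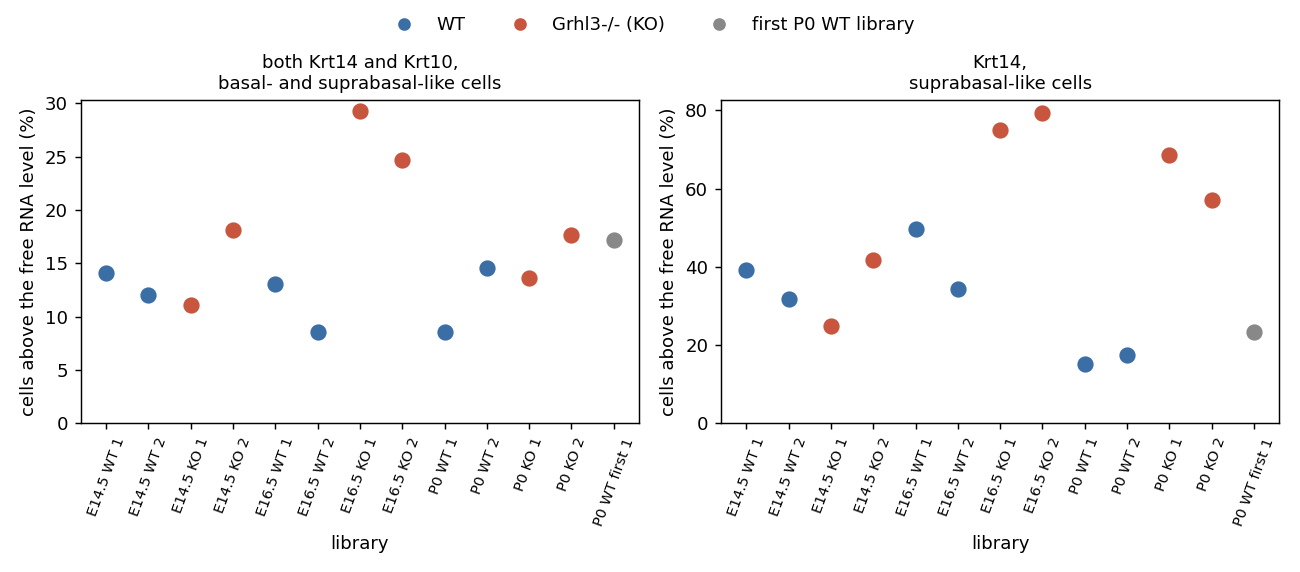
Share of cells (%) above the free RNA level of their library, after thinning each cell to 3000 UMIs. The left panel shows cells with both Krt14 and Krt10, among basal- and suprabasal-like cells together, and the right panel Krt14 among suprabasal-like cells. Each point is 1 library. On the right, the 4 Grhl3-/- libraries of E16.5 and P0 lie above every WT library.

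Cells with both a basal and a suprabasal keratin were counted after each cell was thinned to 3000 UMIs. This left out at most 1.39% of a library's basal-like, 2.76% of its suprabasal-like and 3.19% of its non-epithelial cells. A gene counted as present above the 99th percentile of its UMIs in non-epithelial cells of the same library, and at most 0.174% of those cells passed for both genes. Both Krt14 and Krt10 were present in 14.1% and 12.04% of IFE-like cells in WT and 11.1% and 18.1% in Grhl3-/- at E14.5. At E16.5 the shares were 13.1% and 8.59% against 29.3% and 24.7%, and at P0 8.54% and 14.6% against 13.6% and 17.7%, with 17.2% in the earlier library. In this share over both classes together the genotypes were apart only at E16.5. The mix of classes differed at P0. Basal-like and suprabasal-like cells numbered 523 and 707 in the first WT library and 471 and 737 in the second. They numbered 1486 and 516, and 555 and 408, in the Grhl3-/- libraries, and the part of this mix in the P0 shares was not tested. The mean difference was 7.25 percentage points (exact permutation p = 0.0556, adjusted p = 0.201). The level a cell had to exceed also differed at E16.5: for Krt10 it was 6 and 11 UMIs in WT and 2 and 2 UMIs in Grhl3-/-. With 1 common level for all libraries, an alternative chosen after seeing the data, the mean difference was 3.60 points (exact permutation adjusted p = 0.139).

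From 55 of 62 to 60 of 60 double-positive cells of an embryonic library were suprabasal-like. Among suprabasal-like cells, Krt14 was above the free RNA level in 39.2% and 31.7% in WT and 24.9% and 41.8% in Grhl3-/- at E14.5. The shares were 49.7% and 34.3% against 74.9% and 79.4% at E16.5, and 14.99% and 17.4% against 68.6% and 57.1% at P0, with 23.2% in the earlier library. The genotypes overlapped at E14.5 and were apart at E16.5 and P0. The level to exceed for Krt14 was 2 and 9.47 UMIs in WT and 2 and 2 UMIs in Grhl3-/- at E16.5, and 9 and 4 against 10 and 6.54 UMIs at P0. With 1 UMI as the threshold the E16.5 shares were 62.2% and 67.8% against 84.8% and 86.5%. In basal-like cells at P0 both genes were present in 6.12% and 14.4% in WT, 3.77% and 4.14% in Grhl3-/- and 15.8% in the earlier library, so the order of the genotypes there was the reverse of that in suprabasal-like cells. A threshold of 1 UMI in place of the free RNA level would have counted 80.04% of the non-epithelial cells of the earlier library as positive for both.

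**Figure D5:**
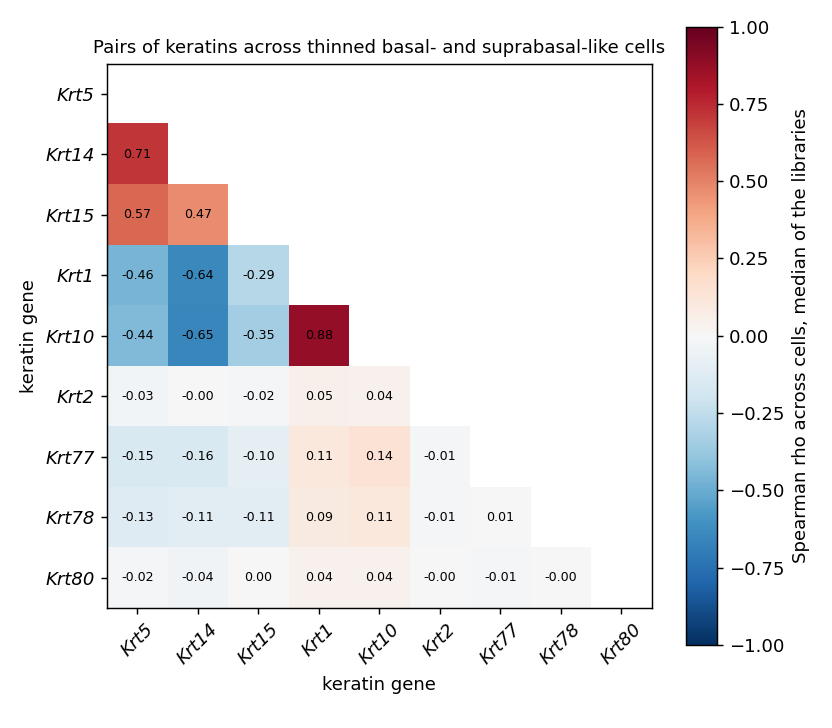
Spearman correlation of each pair of keratins across thinned basal- and suprabasal-like cells, as the median over libraries. Rows and columns are the 9 genes and the colour scale runs from -1 to 1. The basal genes and Krt1 with Krt10 form positive blocks, and the pairs between the blocks are negative.

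Single cells of a library were also compared. Over 36 pairs, Krt1 and Krt10 had the highest median Spearman correlation over the 13 libraries, 0.88 (range 0.66 to 0.93), followed by Krt5 with Krt14 (0.71, 0.49 to 0.83), Krt5 with Krt15 (0.57, 0.45 to 0.71) and Krt14 with Krt15 (0.47, 0.25 to 0.73). These 4 pairs were positive in every library. Krt14 with Krt10 was lowest (-0.65, -0.80 to -0.23), close to Krt14 with Krt1 (-0.64), and 5 pairs were negative in every library. These are descriptions across cells, which share a library and its depth. Within basal-like cells alone, Krt1 with Krt10 had a median of 0.17 and Krt14 with Krt10 of -0.02, against 0.83 for Krt1 with Krt10 within suprabasal-like cells. For Krt2, Krt77, Krt78 and Krt80 the medians over the libraries where both genes were read lay between -0.16 and 0.14 with every other member, in sparse counts. Single libraries reached further, up to 0.504 for Krt10 with Krt77 and 0.412 for Krt10 with Krt78 and down to -0.437 for Krt14 with Krt77.

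Free keratin RNA, the 9 genes summed in non-epithelial cells, was 75.5 and 92.1 CPM in WT and 133 and 242 CPM in Grhl3-/- at E14.5. At E16.5 it was 809.9 and 1304 CPM against 367 and 247 CPM, and at P0 1508 and 1037 CPM against 1207 and 798 CPM. Grhl3-/- libraries were thus above WT at E14.5 (mean log2 difference 1.11) and below WT at E16.5 (-1.77), with no overlap at either age, and the mean over ages was -0.34 (exact permutation p = 0.481, adjusted p = 0.481).

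Other genes with the most similar pattern were looked for among all genes outside the keratins, by Pearson correlation of log2(CPM + 10) over 145 library-by-class sums in 16 classes. Sfn (r = 0.95), Serpinb5 and Perp came nearest to Krt5, Serpinb5 (0.94), Sfn and Lgals7 to Krt14, and Perp (0.94), Serpinb5 and Fxyd3 to Krt15. Calm4 (0.92), Fam25c and Them5 came nearest to Krt1 and Them5 (0.92), Calm4 and Fam25c to Krt10. Krt77 had Them5 (0.81), Asprv1 and Serpinb12, Krt78 had Flg (0.83), Spink5 and Cysrt1, Krt80 had Dapl1 (0.72), Tmprss4 and Flg, and Krt2 had Smtnl2 (0.61), Lancl1 and Rhbg. Perp, Sfn, Lgals7, Serpinb5, Calm4 and Flg were among the markers that named the classes. Fam25c, which was not, was lower in Grhl3-/- suprabasal-like cells at each age (log2 -2.14, -2.24 and -2.90) (edgeR adjusted p under the threshold each time). Of all genes 1.54%, 3.64% and 36.1% were called there. Other nearest genes, such as Them5, Fxyd3 and Asprv1, were not markers either, and their genotype differences are not given here.

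Among 14 other epithelial keratins, 13 could be tested in suprabasal-like cells. At E14.5, where 1.54% of all genes were called, 0 passed (2 at an unadjusted p under 0.05, 0 by DESeq2). At E16.5 3 were higher in Grhl3-/- and 1 lower, where 3.64% of all genes were called, and at P0 4 were higher and 2 lower, where 36.1% were (list median 0.90 on the log2 scale). Krt6b and Krt6a, type II keratins of wounded or stressed epidermis, rose by 7.68 (SE 1.39) and 5.31 (SE 0.84) on the log2 scale at E16.5 and by 5.95 and 4.96 at P0. Krt16, their type I partner, rose by 3.17 (SE 0.74) at E16.5, and Krt23 fell by 4.82 at E16.5 and 3.68 at P0. Krt7 and Krt17 rose at P0 by 3.57 and 0.90, and Krt79 fell by 2.16. In basal-like cells 0 of 10 were called at E14.5 (1 at an unadjusted p under 0.05, 0 by DESeq2), where 0.00805% of all genes were. At E16.5 0 of 10 were called (6 at an unadjusted p under 0.05, 1 by DESeq2), where 0.362% of all genes were. At P0, where 36.7% of all genes were called, Krt17 was higher (1.03) and Krt23 (-4.31), Krt16 (-3.07), Krt79 (-1.32) and Krt7 (-1.19) were lower.

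The list of 14 genes that anchor or bundle keratin filaments (desmosomal plaque proteins, plakins and filaggrins) had 13 members in the matrices, and all 13 were tested in suprabasal-like cells. At E14.5 0 passed in suprabasal-like cells (4 at an unadjusted p under 0.05, 1 by DESeq2) and 0 in basal-like cells (0 and 0). Of all genes 1.54% and 0.00805% were called there. At E16.5 (3.64% of all genes called) 3 were lower in Grhl3-/-, Hrnr (-4.01), Flg2 (-2.63) and Ppl (-0.75), and at P0 (36.1%) 12 were lower and 1 higher, with a median of -1.20 on the log2 scale beside -0.02 over all genes. Flg2 (-7.15), Hrnr (-6.21), Flg (-5.37) and Evpl (-1.77), the gene of the cornified envelope plakin envoplakin, changed most. In basal-like cells 2 of 12 were lower at E16.5 (0.362% of all genes called), Hrnr (-5.35) and Flg (-4.25), and 10 at P0 (36.7%), with a median of -0.90 beside 0 over all genes. At E16.5 the 8 granular markers, Hrnr and Flg among them, summed to 184 and 295 CPM in WT basal-like cells. That was below the 230 and 399 CPM of non-epithelial cells. In Grhl3-/- they stood at 28.2 and 22.2 CPM, above 16.3 and 4.86 CPM. The part of free RNA in the Hrnr and Flg values was not tested. Flg, Flg2, Hrnr, Dsp and Dst were also used to name classes. Among 24 epidermal regulators, 1 was higher and 12 lower in suprabasal-like cells at P0 (median -0.42, beside -0.02 over all genes, of which 36.1% were called), with Klf4 (-1.62), Grhl1 (-1.51) and Hes1 (-1.26) beside Grhl3. At E16.5, where 3.64% of all genes were called, Prdm1 (-3.84), Mxd1 (-1.65) and Grhl3 were lower. At E14.5, where 1.54% of all genes were called, Barx2 (1.303) and Fosl2 (1.15) were higher and Klf4 (-0.80) was lower. In basal-like cells 17 regulators were lower at P0 (median -0.90, beside 0 over all genes, of which 36.7% were called), led by Grhl1 (-2.27), Hes1 (-2.20) and Zfp750 (-1.78). Only Barx2 was called in that class at E16.5 (1.36), where 0.362% of all genes were. At E14.5 0 regulators were called there (1 at an unadjusted p under 0.05, 0 by DESeq2), where 0.00805% of all genes were.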

How the data were processed

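Back skin of mouse embryos (E14.5, E16.5) and P0 epidermis was read in 13 droplet libraries, 2 WT and 2 Grhl3-/- per age plus an earlier P0 WT library. The authors deposited raw UMI counts per gene and cell, made with Cell Ranger (1.3.1 in the submitters' processing notes, another release in the methods) on mm10. The labels' protocol names 1 chemistry for all libraries while a title names an older one for the earlier library. No columns of other samples were present (0).

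Cells with 600 to 4800 genes (embryos) or 900 to 7700 genes (P0) and at most 10% mitochondrial UMIs were kept, with genes seen in 6 or more cells. Cells of an age were integrated and clustered with Seurat 5.3.0 (3000 variable genes, 30 components, 20 neighbours, resolution 1), all keratin genes left out. Clusters were named by mean scores of non-keratin markers. Cells with high Scrublet scores (scanpy 1.11.5) stayed in the main values and were removed in an alternative. The score cut-offs and the P0 clusters kept out were set after seeing the data.

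UMIs were summed per library and class. Genes were tested with edgeR 4.0.16 (quasi-likelihood, TMM, filterByExpr, 12 libraries in a shared fit, Benjamini-Hochberg over 12427 or 12091 genes, threshold 0.05), with DESeq2 1.42.0 as an alternative. Each standard error (SE) is the size of the log2 fold change divided by the square root of edgeR's F statistic. On simulated counts with 200 changed genes for Grhl3-/- against WT at P0, 83% and 85% (basal-like, 12027 genes, and suprabasal-like, 11600 genes) of changes of 1 on the log2 scale and 100% of changes of 2 were recovered, with 5 and 13 false calls. No changed gene was sparse and all genes had the same spread, so the simulation does not cover sparse members or genes that vary more between animals. For 5 values per library the genotype labels were permuted within ages (exact, two-sided). Intervals are exact 95%, take a fold against no UMIs from a floor of 3 UMIs, and cover counting error only. Scripts ran in R 4.3.3 and Python 3.11.15.

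The members and lists were chosen with earlier results of these data known. Named genes were the 9 members, the 3 genes most alike to each, and list members past the threshold (the 4 with the largest change where more than 10 passed). Libraries were separate animals, 2 per group, so p-values rest on that spread. The closing section names the alternatives and says which were chosen after seeing the data.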

Additional observations from a re-analysis of the deposited data

Results flagged for a closer look

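The genotype effect on the basal pair differed between ages in suprabasal-like cells: the log2 fold change of Grhl3-/- against WT was 2.06 greater at P0 than at E16.5 for Krt14 (edgeR adjusted p = 0.0102) and 1.96 greater for Krt5 (adjusted p = 0.00204). Both were past the threshold by the interaction test and below it, at 1.13 and 0.93, once the P0 clusters kept out of the classes were added. For Krt14 the adjusted p was also 0.052 with classes made without integration. The P0 libraries are epidermis and the E16.5 libraries whole skin, so age and preparation cannot be told apart here.

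Non-epithelial cells of the earlier P0 WT library, which no comparison used, held 4939 CPM of the 9 keratins together, above the 75.5 to 1508 CPM of the other 12 libraries. A cell of that library needed more than 44 UMIs of Krt14 and 15 UMIs of Krt10, after thinning, to stand above the free RNA level.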

How the results depend on the processing

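Of the values of single members under an alternative, 1177 kept the side of the threshold, 69 lost the call, 52 gained one and 5 reversed. A value counted as reversed if its sign changed and the main or the alternative value was called. Changes of sign where neither value was called are among the 1177. The cause was not tested where none is given. Reversed values came from alternatives chosen after seeing the data: in WT from E16.5 to P0, Krt77 in basal-like cells became 0.27 (adjusted p = 0.491) and Krt10 and Krt1 in suprabasal-like cells -0.75 (0.0130) and -0.71 (0.0235) with the kept-out P0 clusters added, and without the granular cluster of E16.5 Krt77 in suprabasal-like cells became -3.36 (6.92e-05) from E14.5 to E16.5 and 0.99 (0.0329) from E16.5 to P0. The difference in double-positive cells was 7.48 points with doublets removed (adjusted p = 0.0463), its only alternative past the threshold. It was 6.07 points thinned to 1500 UMIs, 7.06 without thinning and 7.07 with the 95th percentile as the free RNA level. RLE size factors changed no count of all genes called by more than 1.5 times. With bins of equal width 6 members had their median peak in the upper 5 bins, against 5 with bins of equal number. Krt80 made the difference (median bin 6 against 2). Libraries without a UMI of a gene counted as bin 1, so the medians of sparse members say little. Subtracting the non-epithelial level took the same value from both classes of a library, so it could not change which class was higher. The 3 members higher in suprabasal-like cells of every library stayed so for that reason. Leaving out 1 library each gave means from -0.30 to -0.09 for Krt5 to Krt14, 0.05 to 0.12 for Krt1 to Krt10, -0.26 to -0.19 for type II to type I, 6.09 to 8.42 points for double-positive cells and -0.48 to -0.19 for free RNA.

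Counts of all genes called in basal-like cells between genotypes were 1 at E14.5 (2 with DESeq2, 43 without a filter, 4 with a crossed replicate block, 5 with the 4 libraries of the age alone, 1 to 4 leaving out a library), 45 at E16.5 (232 without a filter, 26 with the replicate block, 77 with the 4 libraries alone, 8 to 38 leaving out a library) and 4560 at P0 (2883 with DESeq2, 3146 to 4052 leaving out a library). They were 1985 for WT from E14.5 to E16.5 (848 with the replicate block, 916 crossed, 801 to 1222 leaving out a library), 7573 from E16.5 to P0 (6257 to 7028) and 1802 for the interaction (952 to 1919). In suprabasal-like cells they were 186 at E14.5 (287 with DESeq2, 732 without a filter, 70 with the replicate block, 1210 with the 4 libraries alone, 93 without integration, 333 with the kept-out clusters, 19 to 38 leaving out a library), 440 at E16.5 (964 without a filter, 250 with the replicate block, 242 without integration, 109 without the granular cluster, 84 to 281) and 4366 at P0 (2808 with the 4 libraries alone, 3393 to 3649). They were 2502 for WT from E14.5 to E16.5 (984 with the replicate block, 1071 crossed, 1013 to 1570), 5911 from E16.5 to P0 (4171 to 5032) and 1188 for the interaction (1808 without a filter, 787 with the replicate block, 662 without integration, 572 to 1175).

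Same-numbered libraries of the genotypes correlated between -0.151 and -0.00544 in their deviations from the group means, so they did not move together over the genes used. With 2 libraries per group, crossed numbers give the same values with the opposite sign. A correlation over many genes cannot tell of a pairing that touches few, such as sex, which was not tested. What the replicate block shares beyond a number is therefore not known. Crossing the numbers, also chosen after seeing the data, gave 4, 51 and 4321 genes called between genotypes in basal-like and 125, 361 and 4038 in suprabasal-like cells at E14.5, E16.5 and P0. With 2 libraries per group, 145 to 1486 cells per class and library, and few UMIs of Krt2, Krt77, Krt78 and Krt80 outside suprabasal-like cells, small differences in these genes were not detectable.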

Other observations

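The basal keratins were also read in the named epithelial classes outside the IFE of the P0 epidermis, which no comparison used. Hair follicle-like cells held 759 to 1248 CPM of Krt14 (median 1004), 816 to 1265 CPM of Krt5 (median 933) and 305 to 1282 CPM of Krt15 (median 811) in the P0 libraries. Krt14 in those cells was at 1547 to 2095 CPM at E16.5. Sebaceous-like cells, marked by lipid genes such as Scd1, held 3043 to 4660 CPM of Krt14 at P0, with 567 to 1378 CPM of Krt15 and 353 to 757 CPM of Krt5. Merkel-like cells, the touch receptors of the epidermis, held 572 to 1710 CPM of Krt14 in the 3 P0 libraries with at least 20 of them. These Krt14 levels were above that of the non-epithelial cells of the same P0 libraries, 209 to 352 CPM.

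The mix of keratin RNA in non-epithelial cells was read by cell type. At P0 the ratio of Krt10 to Krt14 UMIs was 0.230 to 0.297 in fibroblast-like cells, which were few after the epidermis was separated, and 0.622 to 1.33 in melanocyte-like cells. In the embryos it was 1.63 to 4.55 in fibroblast-like and 0.714 to 3.85 in melanocyte-like cells, the latter from few UMIs. In the first P0 WT library the ratio was 0.261 in fibroblast-like and 1.28 in melanocyte-like cells, so these cell types did not share 1 mix. These are values without a test.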
